A study of Mus musculus with 12 samples.

Results

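Imprinted genes lying outside the Dlk1-Dio3 cluster were followed through postnatal growth and early decline of the mouse thymus. The 39 genes were taken from a list of known imprinted genes, and their estimated read counts were summed over every transcript row carrying the gene's symbol, out of 22843 genes with a symbol. At least 1 library reached 10 counts for 33 of the 39. The other 6, Phlda2, Ascl2, Magel2, Rasgrf1, Kcnk9 and Nap1l5, stayed under 10 counts in every library and are listed as not measured. Mkrn3, with between 1 and 15 counts per library, was measured but fell under the filter on low counts, which left 32 genes tested among 14805.

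Whole thymus came from wild type male C57BL/6 mice, an inbred strain, with no treatment, at 2 weeks (2W), 6 weeks (6W) and 3 months (3M) of age. There were 2 libraries per age of rRNA-depleted RNA, read for mRNAs and circular RNAs, and 2 per age of small RNA, read for miRNAs. Per library, estimated mRNA counts summed to between 16519753 and 22553481 and miRNA tag counts to between 9181478 and 10994118. The study names its replicates biological, but the libraries are not tied to numbered animals, so a p-value measures the spread between these libraries. Because both parental alleles share 1 sum, nothing here separates a change of the expressed allele from a change of imprinting.

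Genomic imprinting silences 1 parental copy of a gene by DNA methylation laid down in the egg or sperm, so that only the paternal or only the maternal copy is read. Imprinted genes lie in clusters under shared control regions, and many act on growth before and shortly after birth, with paternally read genes such as Igf2 tending to promote growth and maternally read genes such as Cdkn1c and Grb10 tending to restrain it. Several members are imprinted only in certain tissues, such as Ube3a and Copg2, or only from certain promoters, such as Gnas.

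The miRNAs in or near the members were read from separate small RNA libraries. The 3 hairpins whose arms passed the filter and changed were Mir335, inside Mest, and Mir296 and Mir298, which lie within 20 kb of the Gnas span. Their mature sequences, from RefSeq on GRCm38.p6, are shown because all 6 arms were called lower at 3M than at 2W. Capitals mark the seed, bases 2 to 8 counted from the 5′ end, which pairs with target mRNAs. No seed was shared among the 6.
mmu-miR-335-5p: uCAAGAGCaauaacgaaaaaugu
mmu-miR-335-3p: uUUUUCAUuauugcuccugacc
mmu-miR-296-3p: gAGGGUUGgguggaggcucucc
mmu-miR-296-5p: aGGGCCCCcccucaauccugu
mmu-miR-298-5p: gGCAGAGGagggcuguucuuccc
mmu-miR-298-3p: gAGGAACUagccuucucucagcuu

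Levels differed widely between members. In FPKM, which divides the count by transcript length and library total and so allows genes to be compared, the mean over the 6 libraries was at least 10 for 11 members, between 1 and 10 for 10 and under 1 for 12. Gnas, which encodes the stimulatory G protein alpha subunit and several alternative products, stood highest at 226 FPKM. The next means were those of Cd81, a tetraspanin, at 66.5 FPKM, H13, the signal peptide peptidase, at 45.2 FPKM, and Ube3a, a ubiquitin ligase, at 44.2 FPKM. The Ube3a libraries, from 32.3 to 59.4 FPKM, overlapped those of H13, from 35.2 to 51.9 FPKM, and those of Cd81, from 57.5 to 73.4 FPKM, so Ube3a could not be ordered against either, while Cd81 lay above H13 without overlap. Of members imprinted across many tissues, Mcts2 at 16.3 FPKM and Impact at 13.7 stood among the higher, and the others were lower, with Cdkn1c at 3.99 FPKM, Grb10 at 2.48, Peg3 at 0.943, Ndn at 0.567, Mest at 0.493, Peg10 at 0.187 and Zim1 at 0.085.

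**Figure D1:**
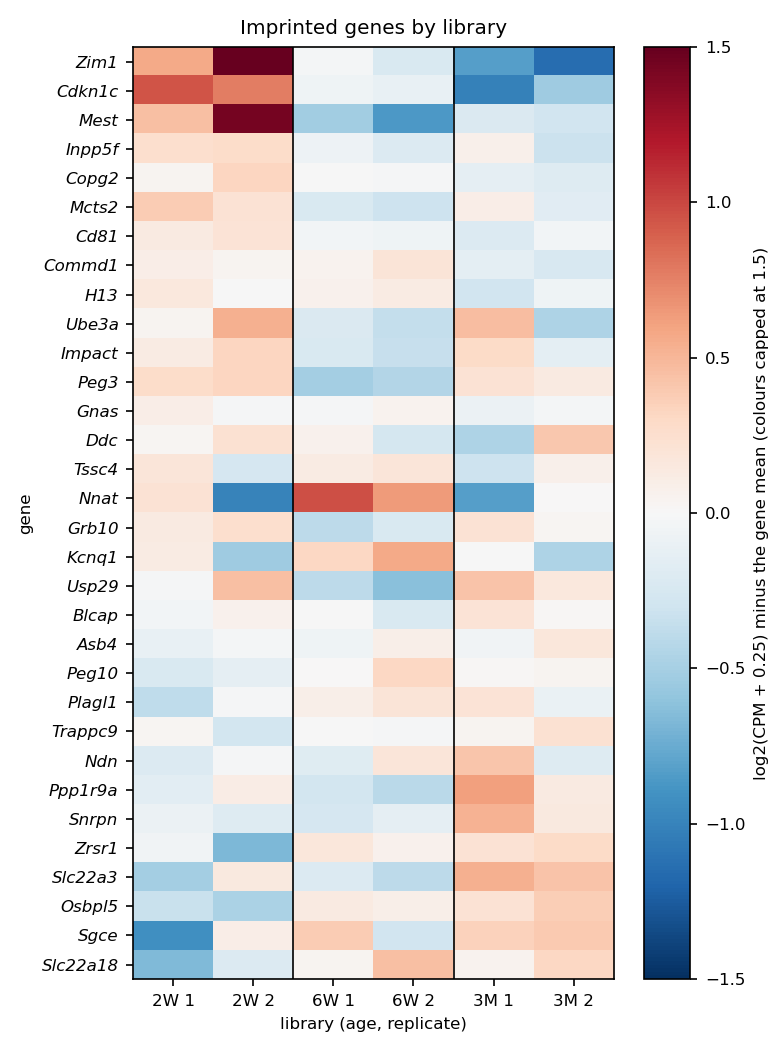
Level of each of the 32 tested imprinted genes (rows) in each of the 6 rRNA-depleted libraries (columns, age and replicate), as log2(CPM + 0.25) minus the gene's mean over the libraries, with colours capped at 1.5 and rows ordered by the change from 2W to 3M. Zim1, Cdkn1c and Mest were highest at 2W, and Peg3, Usp29 and Grb10 had their lowest libraries at 6W.

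Between 2W and 3M the share of Cdkn1c in the mRNA counts fell and that of Osbpl5 rose, the Osbpl5 call being lost under many alternatives given below. With Zim1, lower at 3M, Cdkn1c and Osbpl5 were the 3 members called among the 32 tested. The test was edgeR's quasi-likelihood test with Benjamini-Hochberg adjustment over all genes at a threshold of 0.05. By unadjusted p under 0.05 there were 7 members, Zim1 among them, where 27.3% of all genes passed. Over all genes tested, 11% were called in this comparison, 7.91% higher and 3.1% lower, so the members were called at about the rate of other genes. Zim1 reached the level of the filter on low counts in its 2W libraries alone, so that it could only have been tested with 2W highest, and its tests are given as a description. Without it, 2 of 31 members were called. The median log2 fold change of the members was -0.07, beside -0.03 over all genes. Cdkn1c and Osbpl5, which moved in opposite directions, are read from the maternal copy in tissues where they are imprinted. Of the members tested, 16 are maternally read, Zim1 among them, and 12 paternally read. A difference between the 2 sets was not tested.

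Cdkn1c encodes a cyclin-dependent kinase inhibitor that holds cells out of division. In CPM, the count scaled to a common library size after TMM normalization, it stood at 12.9 and 11.4 at 2W, 6.25 and 6.09 at 6W, and 3.13 and 4.48 at 3M. The 3 ages did not overlap, each later age lying below the one before. The log2 fold change was -1.67 (SE 0.226, adjusted p = 0.0106) from 2W to 3M, made of -0.98 (adjusted p = 0.0871) from 2W to 6W and -0.69 (adjusted p = 0.281) from 6W to 3M. The call was lost without either 2W library, at adjusted p = 0.0617 and 0.0513. Its transcripts could not be followed singly, since the largest annotated one was estimated at between 53.9 and 137.5 counts in the 2W and 6W libraries and at 0 in both 3M libraries while the gene kept 52 and 100 counts.

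Zim1, a zinc finger gene next to Peg3, had few reads. Its estimated counts were 9 and 24 at 2W, 6 and 5 at 6W, and 1 and 0 at 3M. In counts and in CPM every 3M library lay under every 6W library, and these under both 2W libraries. In FPKM the ages were not separate, at 0.07 and 0.27, then 0.11 and 0.03, then 0.03 and 0. The 33 counts at 2W against 1 at 3M gave a ratio of 40.0 after scaling by library size, with an exact 95% interval from 6.7 to 1628 that covers counting error only. The quasi-likelihood test, which the gene entered only through its 2W libraries, gave adjusted p = 0.034 for 3M against 2W, with adjusted p = 0.242 for 6W against 2W and 0.338 for 3M against 6W. Leaving out any 1 library ended the call, as did using annotated transcripts alone (adjusted p = 0.0673) or the replicate number as a block. In a fit of the 4 libraries compared the gene fell under the filter.

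Osbpl5 encodes a lipid transfer protein of the oxysterol-binding family. Its libraries stood at 9.61 and 8.71 CPM at 2W, 13.3 and 12.97 at 6W, and 14.1 and 15.8 at 3M. Each later age lay above the one before without overlap, and the log2 fold change from 2W to 3M was 0.71 (SE 0.149, adjusted p = 0.0309), of which 0.52 (adjusted p = 0.144) came by 6W. Which transcript carried the sum differed between libraries of 1 age: a single annotated transcript held 227.1 of 235 counts in the first 3M library and 0 of 353 in the second, where 2 assembled transcripts held 178.5 and 154.6. The gene sum does not depend on that split, but with annotated transcripts alone the adjusted p was 0.682, and in a fit of the 4 libraries compared it was 0.0874. With the replicate number as a block Osbpl5 was not called. The call was also lost without any 1 library other than the first at 3M. The count of called members was therefore 0 without either 2W library, 1 without either 6W library, 2 without the first 3M library and 1 without the second.

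**Figure D2:**
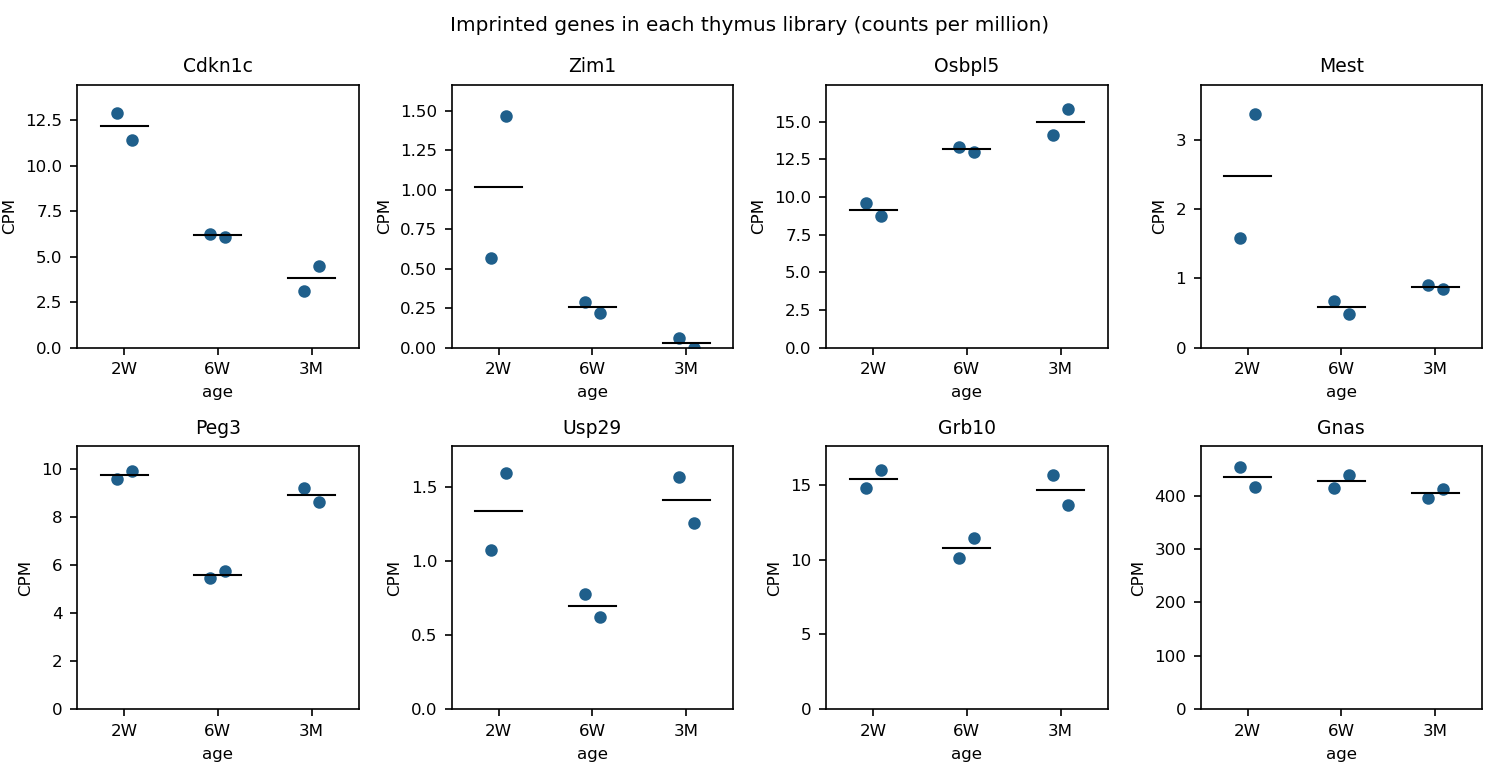
CPM (vertical axis, linear from 0) of 8 imprinted genes in the 2 libraries of each age (points), with the mean of each age as a line. Cdkn1c and Zim1 step down with age, Osbpl5 steps up, Mest drops after 2W, Peg3, Usp29 and Grb10 dip at 6W, and Gnas stays between 396 and 454 CPM.

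The study's own threshold, an unadjusted p under 0.05 with a log2 fold change beyond 1 in either direction, was met from 2W to 3M by Cdkn1c and Mest, both lower, 2 of the 31 members other than Zim1, where 1.68% of all genes met it downward. Zim1 met it too. Mest, a paternally read gene of the alpha/beta hydrolase fold known from embryonic mesoderm, had 25 and 55 estimated counts at 2W, 14 and 11 at 6W, and 15 and 19 at 3M. In CPM these were 1.58 and 3.37, then 0.68 and 0.49, then 0.90 and 0.85. Both 2W libraries lay above the other 4, although they differed between themselves by more than the later ages did. The log2 fold change was -1.49 (SE 0.488, adjusted p = 0.105) from 2W to 3M and -2.08 (SE 0.502, adjusted p = 0.103) from 2W to 6W, so Mest did not pass the adjusted threshold in either. All 55 counts of the second 2W library were assigned to 1 assembled transcript, and 24.5 of the 25 in the first to an annotated one. Without the assembled transcript the second 2W library was not above the later ages.

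Between 2W and 6W, the interval in which the thymus grows, none of the 32 tested members was called by edgeR, where 1.74% of all genes were. By unadjusted p under 0.05 there were 9 members, where 18.9% of all genes passed. DESeq2 called 2 members in this comparison, Peg3 and Cdkn1c, both lower, where it called 5.89% of all genes, about the same share. The study's threshold was met by Mest, lower, 1 of the 31 members other than Zim1, where 0.878% of all genes met it downward. Zim1 met it too, but could enter only with 2W highest. Of the 32, 13 had both 6W libraries below both 2W libraries and 7 had both above, where 29.8% and 28% of all genes did. Zim1, tested only through 2W, is among the 13 and among the 9 with an unadjusted p under 0.05.

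Peg3 encodes a paternally read zinc finger transcription factor, and Usp29, a paternally read gene of the deubiquitinase family, starts beside it and runs the other way. Peg3 stood at 9.61 and 9.93 CPM at 2W, 5.48 and 5.74 at 6W, and 9.20 and 8.65 at 3M. Its 6W libraries lay below all the others, with a log2 fold change of -0.80 (SE 0.164, adjusted p = 0.0723) from 2W to 6W and 0.67 (SE 0.164, adjusted p = 0.232) from 6W to 3M. Usp29 stood at 1.07 and 1.59, then 0.78 and 0.62, then 1.56 and 1.25 CPM, with log2 fold changes of -0.93 (adjusted p = 0.3) and 1.01 (adjusted p = 0.355). Neighbours at a shared start thus had their lowest libraries at the same age, while Zim1, the maternally read gene of the cluster, had its lowest libraries at 3M.

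Both 6W libraries lay below all 4 others in 7 of the 32 tested members, which is 21.9%, where 8.68% of all genes tested had that order. Besides Peg3, Usp29 and Mest these were Grb10, Impact, Mcts2 and Ppp1r9a. Grb10, an adaptor that restrains insulin receptor signalling, had 14.8 and 16.0 CPM at 2W, 10.1 and 11.4 at 6W, and 15.6 and 13.7 at 3M. Impact, an inhibitor of the amino acid sensing kinase GCN2, had 135 and 155, then 106 and 97.5, then 151 and 112 CPM. Mcts2, a retrogene inside H13 whose parent acts in translation, had 20.7 and 18.4, then 13.5 and 12.7, then 16.9 and 13.9 CPM. Ppp1r9a, the actin-binding protein neurabin, had 7.27 and 8.83, then 6.69 and 6.09, then 12.6 and 8.96 CPM.

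None of these 7 was called in either step by edgeR, and the comparisons share the 6W libraries, so a rise after 6W is not independent of a fall before it. The count was 7 with the total count as the only scaling, where 7.11% of all genes had that order, and 5 on FPKM, where 5.79% had it and Impact and Ppp1r9a left it. In FPKM the Impact libraries were 10.5 and 12.4 at 2W, 13.8 and 12.9 at 6W, and 17.5 and 14.9 at 3M. The estimated split between its transcripts moved too, 1 assembled transcript holding 38.8 and 189 counts in the 2W libraries against 456 and 674 in the 3M libraries, and its part in that difference was not tested. Each later age lay below the one before without overlap in Cdkn1c and Copg2, and in Zim1, tested only through 2W, where 5.36% of all genes had that order. Copg2 was not called, and it left this order both with total-count scaling and on FPKM. Zim1 left it on FPKM as well. Each later age lay above the one before in Osbpl5 and Zrsr1, where 8.79% of all genes had that order. With total-count scaling Trappc9 joined them, where 10.2% had it, and on FPKM the 2 members were Impact and Zrsr1, where 9.19% had it, and Osbpl5 left it. The order with both 6W libraries above the 4 others was seen in Kcnq1 and Nnat, where 7.04% of all genes had it. Nnat, a small membrane proteolipid gene inside Blcap, had only 12 and 3, then 30 and 25, then 4 and 14 counts.

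The motif letters searched were those known for binding by Plagl1, an imprinted zinc finger factor that is itself a member. GGGGCCCC, which reads the same on both strands, was found in the 250 bases before an annotated start of 3 of the 32 members with a RefSeq promoter, Peg3, Ppp1r9a and Rasgrf1, and in 1.03% of 27025 genes. These 32 are not the 32 tested. Cdkn1c, Impact, Kcnk9, Kcnq1, Peg10, Sgce and Trappc9 had no such promoter and were not searched. Counted by window, the 250 bases before each start, the shares were 6.38% of 47 and 0.889% of 32851. The members' windows were richer in CpG, with a median of 13 beside 6 over all genes, and in GC, 58% beside 52.4%. The Peg3 window is shown because this start is shared with Usp29 and both genes were lowest at 6W. The window before the Usp29 start holds no match, since the match in the Peg3 window lies beyond that start. It lies at chr7:6730420-6730669 on the minus strand of GRCm38.p6, and capitals mark the GGGGCCCC match.
Peg3 promoter: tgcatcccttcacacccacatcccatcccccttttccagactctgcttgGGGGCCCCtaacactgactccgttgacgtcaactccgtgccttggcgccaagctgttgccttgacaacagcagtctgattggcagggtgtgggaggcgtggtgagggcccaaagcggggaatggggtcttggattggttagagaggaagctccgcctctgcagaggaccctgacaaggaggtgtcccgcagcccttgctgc

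The letters TGCCGC, known for binding by Zfp57, which keeps imprinted methylation in place, were found on either strand before 7 of the 32 genes, Copg2, Mcts2, Mest, Nap1l5, Osbpl5, Plagl1 and Zim1, beside 9.84% of all genes. The Mest window at chr6:30737800-30738049 on the plus strand held them at 2 places, read as GCGGCA on the strand shown. It is printed as the start of the gene that carries Mir335. A match is a description of letters only.
Mest promoter: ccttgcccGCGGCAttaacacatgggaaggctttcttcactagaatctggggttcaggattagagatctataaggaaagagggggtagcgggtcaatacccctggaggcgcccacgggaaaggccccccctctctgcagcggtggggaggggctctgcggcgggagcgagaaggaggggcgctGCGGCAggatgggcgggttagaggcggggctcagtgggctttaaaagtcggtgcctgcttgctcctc

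Plagl1 itself stood at 6.51 and 8.46 CPM at 2W, 9.06 and 9.80 at 6W, and 9.92 and 7.97 at 3M, with a log2 fold change of 0.33 (adjusted p = 0.42) from 2W to 6W. Part of its sum came from assembled transcripts whose symbol was written in another case.

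Between 6W and 3M no tested member was called by edgeR, where 0.00675% of all genes were, a single gene. By unadjusted p under 0.05 there were 7 members, Zim1 among them, where 14.3% of all genes passed. DESeq2 called no member, where it called 2.31% of all genes. The study's threshold was met by Zim1 alone, lower, where 0.817% of all genes met it downward, and by none of the 31 others. The median log2 fold change of the 32 was 0.14, beside 0.02 over all genes. Slc22a3, an organic cation transporter, went from 4.46 and 3.88 CPM in the 6W libraries to 7.58 and 7.03 in the 3M libraries, with a log2 fold change of 0.81 and adjusted p = 0.292.

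**Figure D3:**
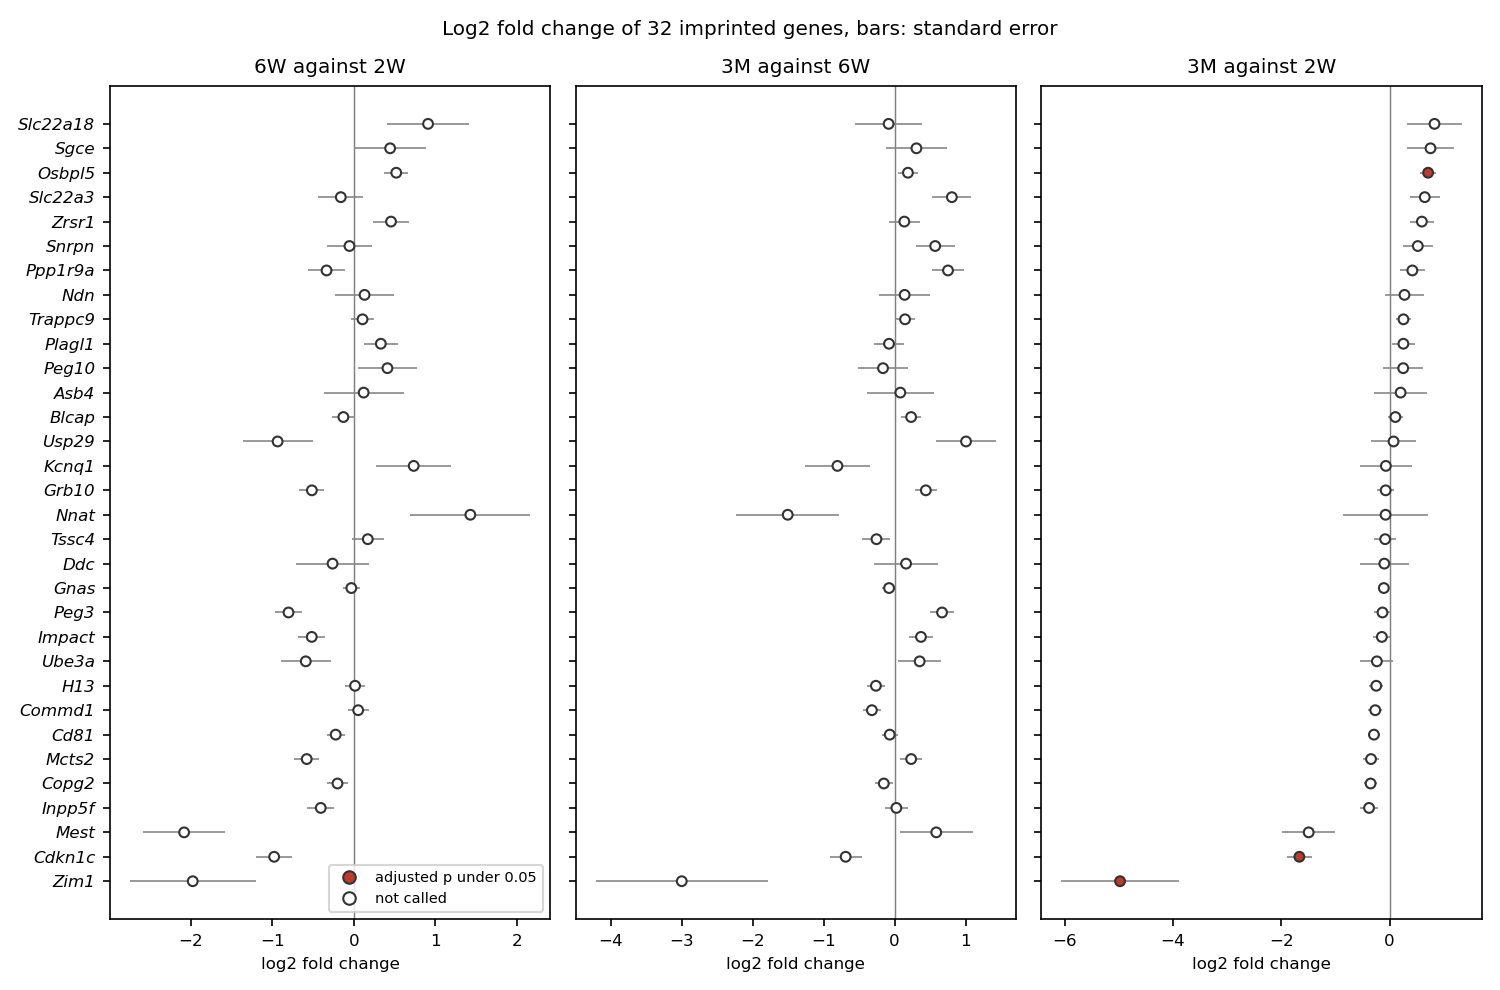
Log2 fold change (horizontal axis) of the 32 tested imprinted genes (rows) for 6W against 2W, 3M against 6W and 3M against 2W, with bars of 1 standard error and filled points for an adjusted p under 0.05. The only filled points are Zim1 (-4.98), Cdkn1c (-1.67) and Osbpl5 (0.71) in the last panel, and the Zim1 value rests on 1 count at 3M.

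Among the growth genes, Ndn, a neuronal growth suppressor of the MAGE family, had a log2 fold change of 0.27 from 2W to 3M, and Peg10, derived from a retrotransposon, one of 0.25. Neither passed (adjusted p = 0.675 and 0.708). Ube3a libraries of 1 age differed widely at 2W and 3M, with 321 and 453 CPM at 2W, 270 and 245 at 6W, and 431 and 227 at 3M. The log2 fold change of -0.59 from 2W to 6W was not called (adjusted p = 0.344). Snrpn, a splicing protein of the same cluster as Ube3a, had a log2 fold change of 0.52 from 2W to 3M (adjusted p = 0.28).

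The 5 longer genes that hold or overlap a smaller imprinted one, Copg2, H13, Blcap, Commd1 and Trappc9, each had a log2 fold change within 0.5 of 0 in all 3 comparisons, as did 19, 22 and 23 of the 32 members in the 3 comparisons. Copg2, a coat protein of Golgi vesicles whose end overlaps that of Mest, had -0.35 from 2W to 3M (adjusted p = 0.131). Commd1, which holds Zrsr1, had -0.27 (adjusted p = 0.241), and Zrsr1, a retrogene for a splicing factor, had 0.60 (adjusted p = 0.144). The source of the counts does not say whether strand was used, so reads from the overlapping ends of Mest and Copg2, or from Commd1 and Zrsr1, cannot be told apart, and Mcts2 and Zrsr1 may share reads with the genes they were copied from.

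Of the 8 members of the Kcnq1 cluster, which holds Cdkn1c and Osbpl5 at different distances from its control region, 6 were tested. Only Cdkn1c and Osbpl5 were called from 2W to 3M, in opposite directions. Cd81 had a log2 fold change of -0.29 (adjusted p = 0.148), Tssc4, a splicing assembly factor, -0.08 (adjusted p = 0.827), Kcnq1, a potassium channel subunit, -0.07 (adjusted p = 0.945) and Slc22a18, a transporter, 0.83 (adjusted p = 0.346). Slc22a18 rested on 6 to 25 counts per library. Gnas was not called, with log2 fold changes of -0.03, -0.08 and -0.11 for 6W against 2W, 3M against 6W and 3M against 2W and a standard error of 0.1 for each.

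Both arms of Mir335, Mir296 and Mir298 fell from 2W to 3M. Of the 7 tested miRNAs in or near a member or listed for its locus, 6 were called lower from 2W to 3M, where 16.4% of 822 miRNAs tested were called lower and 29.9% in either direction. From 2W to 6W, 4 of the 7 were called, all lower, where 8.64% of all miRNAs were called and 6.33% lower. From 6W to 3M, 2 were called, both lower, where 0.852% were called and 0.365% lower. The 6 are paired arms of Mir335, Mir296 and Mir298, and the last 2 hairpins lie 378 bases apart. They are therefore not 6 separate features to set against these shares. The seventh, mmu-miR-184-3p, from a hairpin upstream of Rasgrf1, lay between 55.9 and 79.6 CPM in all libraries and was not called.

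The 5p arm of Mir335, mmu-miR-335-5p with the seed CAAGAGC, stood at 140.6 and 156 CPM of miRNA tags at 2W, 24.1 and 22.9 at 6W, and 13.9 and 12.1 at 3M. The fall came mainly in the first interval, with a log2 fold change of -2.66 (SE 0.222, adjusted p = 0.00028) from 2W to 6W and -0.85 (SE 0.22, adjusted p = 0.0867) from 6W to 3M. The 3p arm, mmu-miR-335-3p, stood at 22.9 and 32.4, then 7.61 and 9.64, then 8.03 and 9.06 CPM, so that it fell by 6W (log2 fold change -1.68, SE 0.266, adjusted p = 0.00908) and had a log2 fold change of -0.01 (adjusted p = 0.983) after it. The gene sum of Mest, whose span holds the hairpin, was also highest at 2W in the mRNA libraries. Its log2 fold changes were -2.08 and 0.59 in the same intervals, not past the adjusted threshold. That order rests on an assembled transcript, since annotated Mest transcripts held 0 counts in the second 2W library.

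The ratio between the arms of Mir335 was lower at each later age in these libraries. Each 3p tag was matched by 6.13 and 4.81 tags of the 5p arm at 2W, 3.17 and 2.38 at 6W, and 1.73 and 1.34 at 3M. The 3 ages did not overlap, but how many other hairpins had that order was not counted. In Mir296 the main arm had 23.9 and 18.7 tags per tag of the rarer arm at 2W, 26.1 and 24.9 at 6W, and 12.4 and 15.2 at 3M, lowest at 3M but with no fall before 6W. In Mir298 the ratio rested on few tags of the rarer arm and ran from 112 to 696, both in the 3M libraries. With 2 libraries per age an exact permutation test between any pair of ages cannot give a p under 0.333, and none was run.

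**Figure D4:**
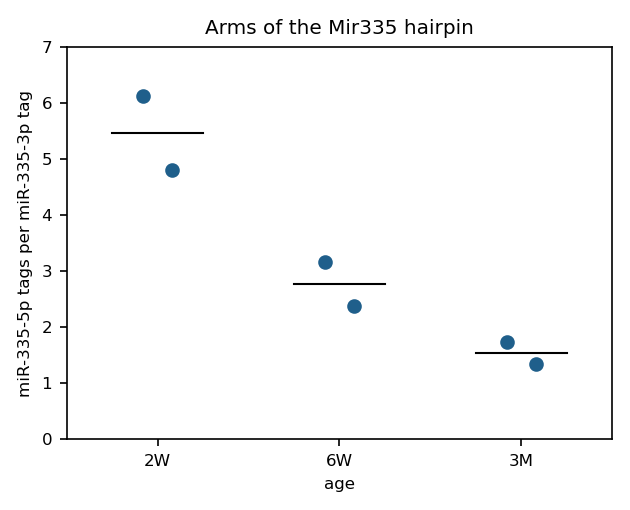
Number of mmu-miR-335-5p tags per mmu-miR-335-3p tag (vertical axis, linear from 0) in the 2 small RNA libraries of each age (points), with the mean of each age as a line. The ratio falls from 6.13 and 4.81 at 2W to 1.73 and 1.34 at 3M.

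Mir296 and Mir298, neighbours on the strand opposite Gnas, each have a main arm and a rarer one. The main arm of Mir296, mmu-miR-296-3p, stood at 524 and 425 CPM at 2W, 266 and 224 at 6W, and 69.3 and 74.8 at 3M. Its log2 fold changes were -0.96 (adjusted p = 0.0306) from 2W to 6W and -1.76 (adjusted p = 0.0108) from 6W to 3M, which sum to -2.72 (SE 0.228, adjusted p = 9.84e-05). The main arm of Mir298, mmu-miR-298-5p, stood at 568 and 466, then 334 and 298, then 125 and 97.8 CPM, with log2 fold changes of -0.71 (adjusted p = 0.0744), -1.501 (adjusted p = 0.0174) and, over both intervals, -2.21 (adjusted p = 0.000247). The Gnas sum over the same ages moved by -0.11 on the log2 scale, but it does not read these hairpins, which lie outside the Gnas span.

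In Mir296 and Mir298 the rarer arms had the larger log2 change before 6W and the main arms after it. In Mir335 the main arm had the larger change in both intervals, -2.66 and -0.85 against -1.68 and -0.01. mmu-miR-296-5p fell from 21.9 and 22.7 CPM at 2W to 5.59 and 4.91 at 3M (log2 fold change -2.08, adjusted p = 0.000477), made of -1.22 (adjusted p = 0.0148) to 6W and -0.86 (adjusted p = 0.114) after it. mmu-miR-298-3p, with 51 and 30 tags at 2W and 2 and 8 at 3M, had a log2 fold change of -2.93 (adjusted p = 0.008), made of -1.84 (adjusted p = 0.0722) and -1.09 (adjusted p = 0.433). Whether arms or hairpins differ in timing was not tested. The calls from 2W to 3M held for the 6 arms when any 1 library was left out. Leaving out either 6W library ended the calls from 6W to 3M, and from 2W to 6W it left only mmu-miR-335-5p called. Without the first 2W library mmu-miR-296-3p was not called from 2W to 6W (adjusted p = 0.1245). A second row of the table, listed as miR-296-y, shares its first 18 bases with mmu-miR-296-3p and was called in all 3 comparisons, at log2 fold changes of -0.88, -1.40 and -2.28. A row listed as miR-298-x, which shares as many bases with mmu-miR-298-5p, was called only from 2W to 3M (-2.23, adjusted p = 0.0025), with -0.39 (adjusted p = 0.5) and -1.84 (adjusted p = 0.051) in the 2 intervals.

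**Figure D5:**
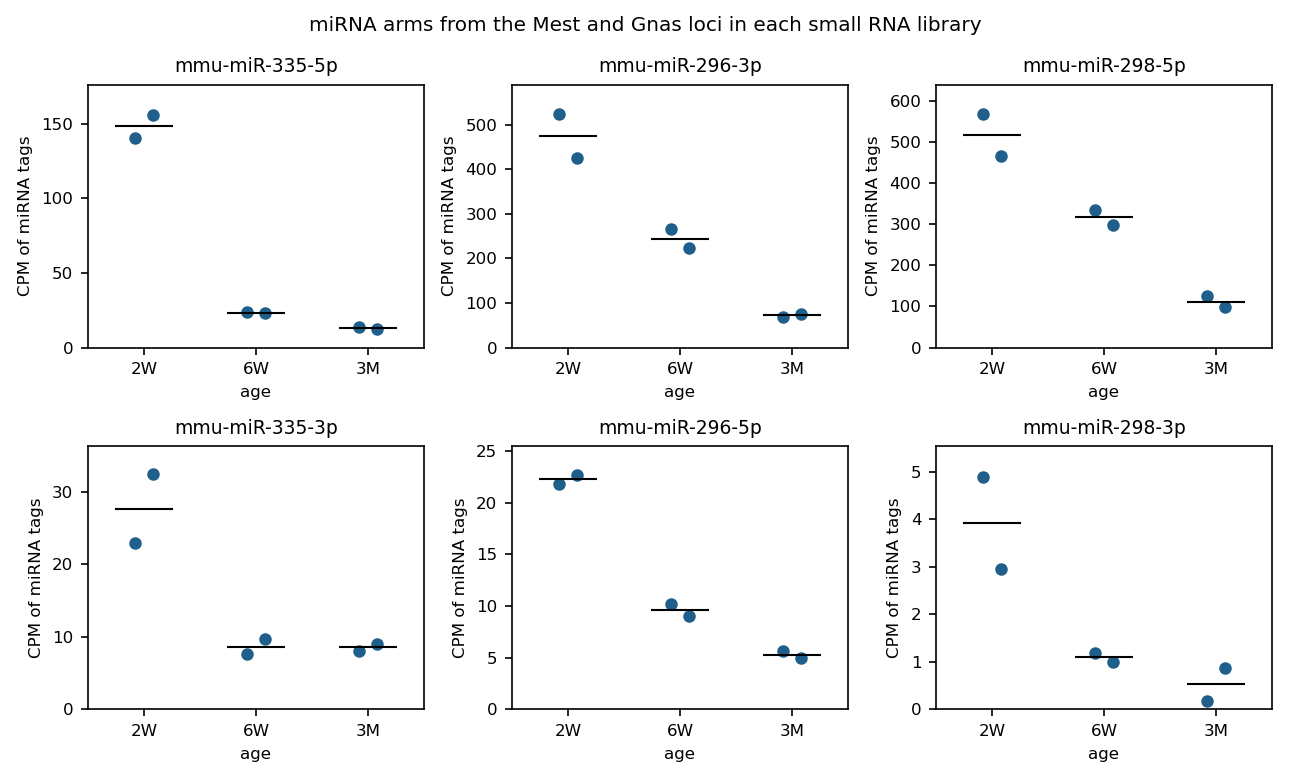
CPM of miRNA tags (vertical axis, linear from 0, scaled panel by panel) of both arms of Mir335, Mir296 and Mir298 in the 2 small RNA libraries of each age (points), with the mean of each age as a line. The 5p arm of Mir335 drops mainly before 6W, from 140.6 and 156 to 24.1 and 22.9 CPM, while the main arms of Mir296 and Mir298 keep falling to 3M.

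mmu-miR-3099-3p, inside Usp29, had 0 to 4 tags per library, mmu-miR-675-3p, from the H19 hairpin, 0 to 3, and mmu-miR-483-5p, inside Igf2, 0 to 4, all under the filter.

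Of 29 further imprinted genes held beside the list, 17 were tested and 2 were called from 2W to 3M, where 11% of all genes were. From 2W to 3M Igf2, the growth factor, fell (6.76 and 9.32 CPM at 2W, 2.08 and 2.52 at 6W, 1.86 and 1.21 at 3M), with a log2 fold change of -2.40 (adjusted p = 0.0108). Dcn, a collagen-binding proteoglycan, rose, with a log2 fold change of 1.44 (adjusted p = 0.0178). No further imprinted gene was called in any comparison.

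Of 26 genes that set or keep imprints, all tested, 3 fell from 2W to 3M and none rose, where 11% of all genes were called and 3.1% lower. They were Uhrf1 (-0.57, adjusted p = 0.032), which guides the maintenance DNA methyltransferase to replicating DNA, Tet1 (-0.82, adjusted p = 0.0183), which oxidises methylated cytosine, and Ezh2 (-0.58, adjusted p = 0.0342), the histone methyltransferase of Polycomb. Zfp57 was near the limit of detection, at 0.485 to 0.985 CPM. The 8 markers of cycling cells moved with these, 6 of 8 lower at 3M than at 2W, with a summed level of 3799 to 3806 CPM at 2W and 2049 to 2576 CPM at 3M. Their part in the fall of these 3 genes was not tested.

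Markers of several cell types moved with age as well, and in whole tissue fewer cells of a type and less RNA per cell cannot be told apart. The 10 markers of double-positive thymocytes, the main cell type of the thymus, were all detected and summed to 16644 to 18562 CPM at 2W and 13161 to 13532 CPM at 3M, with 5 of 10 lower. Fibroblast markers summed to 480 to 521 CPM at 2W and 281 to 330 CPM at 3M, with 3 of 10 higher and 2 lower, and stood at 435 to 485 CPM at 6W. Adipocyte markers summed to 44.7 to 74.3 CPM at 2W, 155 to 173 CPM at 6W and 215 to 389 CPM at 3M, with 6 of 8 higher from 2W to 3M. Myeloid markers summed to 371 to 404 CPM at 2W, 795 to 859 CPM at 6W and 941 to 954 CPM at 3M, with 6 of 8 higher, so that most of their difference was present by 6W. B cell markers summed to 354 to 447, 574 to 652 and 669 to 716 CPM, with 1 of 7 tested higher at 3M than at 2W, and medullary epithelium markers to 190 to 265, 380 to 407 and 304 to 439 CPM, with none of 8 called. Cortical epithelium markers summed to 2237 to 2294 CPM at 2W, 2375 to 2528 CPM at 6W and 2804 to 2837 CPM at 3M, with 3 of 8 higher at 3M than at 2W and 2 lower. In the second 3M library red cell markers summed to 2166 CPM, against 402 to 816 CPM in the others, and parathyroid markers to 48.6 CPM, against 7.17 to 21.3 CPM. Of 3 parathyroid markers tested, 2 (Pth and Chga) were called higher at 3M than at 2W, and Pth, the parathyroid hormone gene, stood at 8.6 and 17.9 CPM in the 3M libraries against 1.39 and 0.674 CPM at 2W. The part of these shifts in the later levels of Cdkn1c, Zim1, Mest, Osbpl5 and the miRNAs was not tested.

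Back-splice reads of circular RNAs were named for 8 members and allowed no comparison between ages. Cd81 had the most, from 1 circular RNA, with 8 and 2 junction counts at 2W, 7 and 5 at 6W, and 6 and 6 at 3M. Trappc9 had 17 counts over 2 circular RNAs on its own strand, and Ube3a had 3 from an intron. Copg2, Cdkn1c and Ppp1r9a had 2 each in a single library. The table marks both circular RNAs named for H13, with 6 counts, the only one named for Kcnq1, with 2, and another named for Trappc9, with 2, as antisense to the gene, so these counts are not from its mRNA.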

How the data were processed

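Members and gene lists were chosen with earlier results of these data known. Per the study's methods, RNA was rRNA-depleted into strand-specific libraries, with a separate 18-30 nt library for miRNAs. For each mRNA transcript the authors deposited estimated counts, 84.1% of them not whole, and FPKM, for miRNAs tag counts with TPM, and for circular RNAs junction counts with RPM. The labels' processing notes name Bowtie 0.12.2 and mm8 without a role, and the mRNA quantifier is not given in the sources used here.

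Estimated counts were summed by gene symbol (symbols differing only in case were joined, 665 genes) and rounded. Transcripts with no symbol, 0.70% to 1.20% of counts, were left out. Each table was fitted with edgeR 4.0.16 (R 4.3.3): TMM scaling, filterByExpr by age, a quasi-likelihood F test on age over all 6 libraries, and Benjamini-Hochberg adjustment over all features, with a call at adjusted p under 0.05. DESeq2 1.42.0 was an alternative. The 3 comparisons share libraries. Fold changes use edgeR's prior count of 0.125. Full statistics go to members called or past the study's threshold, and other members were described by role or by the pattern of their libraries, chosen after values were seen. On simulated counts for 6W against 2W, calls recovered 44% of 2-fold and 81% of 4-fold changes over 14805 genes, and 46% and 89% over 822 miRNAs. Promoter windows were cut to the 250 bases before each start. Intervals cover counting error only.

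The lncRNA table was not analysed here because its rows carry no gene name in the sources used, so the planned tests of imprinted non-coding genes were not run. Numbering of replicates did not pair the libraries: deviations of same-numbered libraries correlated at -0.13, -0.33 and 0.35 for genes and 0.30, -0.21 and -0.08 for miRNAs.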

Additional observations from a re-analysis of the deposited data

How the results depend on the processing

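The 3M against 2W calls of Cdkn1c and Osbpl5 and the calls of the 6 arms of Mir335, Mir296 and Mir298 kept their direction under every alternative that could be fitted. Genes called, 257, 1 and 1630 for 6W against 2W, 3M against 6W and 3M against 2W, depended strongly on the setting. With DESeq2 the first 2 were 872 and 342, without a filter 467 and 19, by exact symbol 124 and 0, and the first was 395 under total-count scaling. With annotated transcripts only they were 4, 0 and 922, from the 4 libraries compared 662, 0 and 663, and with the replicate number as a block 5, 0 and 742. Leaving out a library gave 0 to 658, 0 to 11 and 239 to 1741. Members called at 6W against 2W were 0, but 2 with DESeq2, 1 from 4 libraries and 0 to 1 without a library. At 3M against 2W they were 3, but 1 with annotated transcripts, from 4 libraries or with the replicate block (Cdkn1c in each, while Zim1 and Osbpl5 were not called), and 0 to 2 without a library. Members past the study's threshold were 2 at 6W against 2W, 1 with DESeq2, by exact symbol or with the block, 0 with annotated transcripts and 1 to 3 without a library, and 1 at 3M against 6W, 0 with DESeq2, annotated transcripts or the block, and 0 to 1 without a library. miRNAs called were 71 at 6W against 2W, 109 without a filter and 3 to 105 without a library, and 7 at 3M against 6W, 39 with DESeq2, 47 without a filter, 12 from 4 libraries and 0 to 22 without a library. At 3M against 2W they were 246, and 158 to 208 without a library. The miRNAs in or near members were 4, with 1 to 6 without a library, and 2, with 0 to 2. Members with both 6W libraries highest were 2, but 4 with total-count scaling and 5 on FPKM (7.04%, 8.69% and 10.3% of all genes), and members lower at each later age without overlap were 3, but 1 on FPKM (5.36% and 3.47% of all genes), alternatives added after seeing the data. The replicate block changed no other count of calls by over 1.5 times. The cause was not tested.
With 2 libraries per age, depth and spread limit every comparison, and members near 10 counts carry wide errors. The imprinted non-coding alternatives were not run.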
